A study of Homo sapiens with 6 samples.

Results

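AP-1 is a transcription factor made of pairs of basic leucine zipper proteins, and the expression of 10 genes that encode such proteins was followed here in A375 cells, a human melanoma line. The 10 genes were chosen by name, as the FOS family (FOS, FOSB, FOSL1 and FOSL2), the JUN family (JUN, JUNB and JUND) and the related BATF, BATF3 and JDP2, out of 58302 gene IDs in the count tables. They were chosen with earlier results of these data known, so a share of members called below is not that of a blind choice. All 10 were found and all 10 received an adjusted p. RNA sequencing was run on 3 libraries of cells with the genotype Empty vector and on 3 libraries of cells overexpressing HMGB2, a DNA-bending chromatin protein. HMGB2 was introduced by lentiviral transduction to give a stable line, and the promoter that drives it is not given in the sources used here. The replicates were cell pellets that the study describes as technical, so every p below measures the spread between such pellets and not between independent transductions. The question addressed was which transcripts differ when HMGB2 is raised.

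FOS and JUN proteins bind DNA as dimers at a short palindromic element, the AP-1 site. JUN proteins can pair with each other or with FOS proteins, whereas FOS proteins need a partner, and BATF, BATF3 and JDP2 form dimers that often limit transcription from the same site. FOS, FOSB, JUN and JUNB are immediate-early genes, switched on within minutes of growth factor or stress signals through the MAP kinases. In melanoma, signalling through BRAF and ERK is known to sustain FOSL1, and AP-1 genes are high in poorly differentiated, invasive states.

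Reads assigned to genes numbered between 45925053 and 56755212 per library. HMGB2 itself checked the labels: its normalised read count (reads divided by the DESeq2 size factor) lay between 7250 and 7729 in the empty vector libraries and between 14609 and 16848 in the overexpression libraries, a log2 fold change of 1.05 (SE 0.10, adjusted p = 4.41e-22). Of 8 markers of the labelled cell type, SOX10, S100B, PMEL and MITF averaged 508.5, 103.9, 26.9 and 10.6 TPM with the empty vector. TYRP1, MLANA, DCT and TYR averaged 0.290 TPM or less. These values come from counts summed over both strand columns. The counts of either strand kept 3.37% of the summed PMEL reads and 0 of SOX10. In those counts PMEL averaged 1.08 TPM with the empty vector. The first strand column held 50.07% to 50.17% of the summed reads, so the libraries did not separate the strands. The sums for PMEL, SOX10 and CD68 can therefore hold reads of a gene on the opposite strand, and that part was not tested. The immune marker PTPRC was at 0 in every library. Summed immune markers, mostly CD68, stood at 4.62 to 6.49 TPM with the empty vector and 5.60 to 6.04 TPM with overexpression. Summed epithelial markers stood at 20.3 to 25.4 TPM and 21.8 to 26.5 TPM. Summed fibroblast markers stood at 17.3 to 28.6 TPM with the empty vector and 25.7 to 33.6 TPM with overexpression. One library stood apart. Empty vector replicate 3 held 279 normalised reads of KRT5 against 5.05 and 11.5 in the other two of its group and 200 to 289 with overexpression, yet its HMGB2 lay at the empty vector level. Results are therefore also given without it.

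With HMGB2 overexpression, FOSL1 and FOSB fell, and no member passed the test in the other direction. FOSL1, the most abundant of the 10, was 35.1% lower and FOSB 36.1% lower. Read against all genes, 2 of 10 members were called lower at an adjusted p under 0.05, where 2.64% of genes were called lower and 2.29% higher in the counts of either strand. The same shares were 2.66% and 2.08% in the counts summed over both strand columns, which were used for FOSB, FOSL2, JUNB and JDP2 because a gene on the opposite strand overlaps each of them. The members' log2 fold changes ranged from -0.65 to 0.92 with a median of -0.21, and 7 of 10 were negative. Over all 18878 genes tested the median was 0.003.

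Every overexpression library lay below every empty vector library for FOSL1, JUNB and JDP2, and above for FOSL2. Those 3 of 10 and 1 of 10 members stand beside 10.7% and 11.1% of all genes whose groups were separated in the same direction. The calls moved with the model. The titles do not say what the replicate number marks. With that number as a block, DESeq2 called FOSB, FOSL1 and JUNB lower and FOSL2 higher. That fit called 6.23% of genes lower and 5.90% higher in the counts of either strand. Replicates 1 and 2 alone gave 5 members lower (FOSB, FOSL1, JUN, JUNB and JUND) and FOSL2 higher, beside 9.11% and 7.79% of all genes. EdgeR called 0 members, with 3 lower and 1 higher at an unadjusted p under 0.05, the same numbers as DESeq2 gave unadjusted, and it called 1.52% of genes lower and 1.28% higher.

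**Figure D1:**
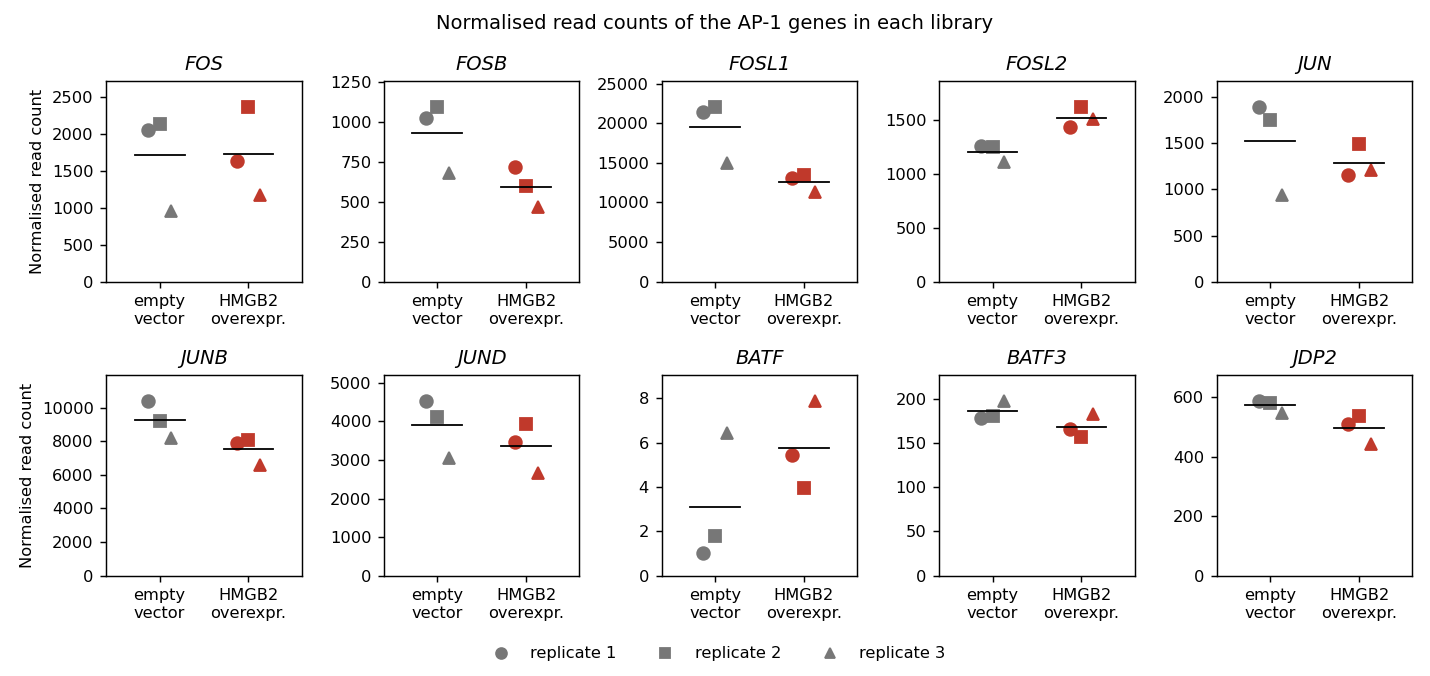
Normalised read counts (y axis, from 0) of the 10 AP-1 genes in each of the 3 empty vector libraries (grey) and 3 HMGB2 overexpression libraries (red), with the marker shape giving the replicate number and the line the group mean. The groups are separated for FOSL1, FOSL2, JUNB and JDP2, and empty vector replicate 3 is the lowest of its group for 8 of the 10 genes.

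Levels between genes were compared as TPM, which divides reads by exon length and scales every library to the same total, here from the counts summed over both strand columns for all members. In empty vector cells the order was FOSL1 (566 ± 130.3 TPM, SD, n = 3), JUNB (276 ± 43.0), JUND (111 ± 25.3), FOS (29.7 ± 12.1), JUN (23.1 ± 8.42), FOSL2 (9.17 ± 0.975), FOSB (9.17 ± 2.46), JDP2 (4.98 ± 0.389), BATF3 (3.93 ± 0.0659) and BATF (0.176 ± 0.162). The ranges of FOS and JUN overlapped, although FOS stood above JUN within each empty vector library. Those of FOSL2 and FOSB also overlapped, and their order differed between libraries. With overexpression FOSL1 (359.5 ± 45.5 TPM), JUNB (219 ± 30.8) and JUND (93.0 ± 21.2) stood at the top of the order in every library. The ranges of FOS (29.2 ± 11.1 TPM) and JUN (19.0 ± 3.25 TPM) overlapped, with FOS again higher within each library. FOSL2 (11.4 ± 1.04 TPM) then stood above FOSB (5.73 ± 1.30 TPM) without overlap. JDP2 (4.23 ± 0.576 TPM) overlapped FOSB in range, although FOSB was higher within each overexpression library. It also overlapped BATF3 (3.48 ± 0.146 TPM) below it, and there the order differed between libraries.

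FOSL1 encodes FRA-1, a FOS protein without the strong activation domain of FOS and a driver of invasive states in several carcinomas. The gene lies on hg38 chromosome 11, 65892049 to 65900573, minus strand. Its normalised read counts were 21388, 22011 and 15025 for the empty vector (replicates 1 to 3 in that order, here and below) and 13109, 13506 and 11313 for overexpression. All overexpression libraries were below all empty vector libraries, and empty vector replicate 3 lay nearest to them. The log2 fold change was -0.62 (SE 0.16, 95% interval -0.94 to -0.31, adjusted p = 0.00421). Its adjusted p was 3.19e-12 with the replicate block and 9.69e-32 in replicates 1 and 2 alone, but 0.0655 in edgeR. Without empty vector replicate 3 the difference was -0.78 (adjusted p = 7.4e-14). Leaving out empty vector replicate 1 gave 0.0905, empty vector replicate 2 gave 0.0725 and overexpression replicate 3 gave 0.073, with log2 fold changes of -0.55, -0.53 and -0.55. Of the 50-base words of FOSL1, 2.94% also occur in the pseudogene FOSL1P1, and reads that fall within them can be left out as multimapped.

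FOSB encodes a FOS protein with strong activation capacity that is induced by growth factors and, in neurons, by repeated activity. It lies on hg38 chromosome 19, 45467995 to 45475179, plus strand, and its span overlaps ERCC1 on the other strand with 0 shared exon bases. Normalised read counts were 1020, 1091 and 682 with the empty vector and 717, 601 and 467 with overexpression. The groups overlapped, because empty vector replicate 3 was below overexpression replicate 1. The log2 fold change was -0.65 (SE 0.21, 95% interval -1.05 to -0.24, adjusted p = 0.0439). This call was the closer of the pair to the threshold: edgeR gave 0.155 and DESeq2 without its independent filter 0.0715. Leaving out empty vector replicate 1 or 2 gave 0.309 each, and leaving out overexpression replicate 2 or 3 gave 0.149 and 0.33. The replicate block gave an adjusted p of 1.12e-05, and replicates 1 and 2 alone gave 2.4e-06. Without empty vector replicate 3 the difference was -0.82 (adjusted p = 6.59e-06).

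FOSL2 encodes FRA-2, the other FOS protein that lacks a strong activation domain, and its values ran opposite to those of FOSL1. The gene lies on hg38 chromosome 2, 28392448 to 28417317, plus strand. Normalised read counts were 1257, 1248 and 1114 with the empty vector and 1441, 1622 and 1508 with overexpression, with no overlap. The log2 fold change of 0.34 (SE 0.11, 95% interval 0.12 to 0.56) had an adjusted p of 0.0594, just outside the threshold. With the replicate block it was 0.34 (adjusted p = 0.0099), so FOSL2 passed in that fit. It also passed in replicates 1 and 2 alone (adjusted p = 0.0314), without empty vector replicate 3 (0.044) and with a filter of 10 counts in 3 libraries (0.0459). In all, FOSL2 passed in 5 of 14 alternatives, and its adjusted p reached 0.48. It was not called in edgeR or when any single library other than empty vector replicate 3 was left out.

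FOS, the founding member, is transcribed for minutes after a stimulus and its RNA decays quickly. The gene lies on hg38 chromosome 14, 75278826 to 75282230, plus strand. Normalised read counts were 2056, 2141 and 965 with the empty vector and 1640, 2368 and 1182 with overexpression. Both libraries numbered 3 were the lowest of their groups and the groups overlapped. Its log2 fold change was 0.01 (SE 0.45). With a 95% interval of -0.87 to 0.89, a change of either sign within those bounds was not detectable in the fit with group alone. With the replicate block the value was 0.03 (SE 0.12), and without empty vector replicate 3 it was -0.28 (SE 0.37, adjusted p = 0.686).

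The promoters of FOSB and FOSL2 are shown because these genes were called in opposite directions in the fit with the replicate block. They come from RefSeq (GRCh38.p14), which held promoters for 8 of the 10 members, taken as 250 bases before to 50 after the annotated start. FOSL1 and BATF3 had no entry. Both strands were searched for the AP-1 site TGANTCA, the CRE-like site TGANNTCA, which includes the cyclic AMP element TGACGTCA, the TATA box TATAAA and the CArG box bound by SRF. Matches to the AP-1 site, the CRE-like site and the TATA box are in capitals. FOSB (chr19:45467746-45468045, plus strand) held a TATA box beginning 30 bases before the start, and FOSL2 (chr2:28392608-28392907, plus strand) held an AP-1 site just after its RefSeq start.
FOSB: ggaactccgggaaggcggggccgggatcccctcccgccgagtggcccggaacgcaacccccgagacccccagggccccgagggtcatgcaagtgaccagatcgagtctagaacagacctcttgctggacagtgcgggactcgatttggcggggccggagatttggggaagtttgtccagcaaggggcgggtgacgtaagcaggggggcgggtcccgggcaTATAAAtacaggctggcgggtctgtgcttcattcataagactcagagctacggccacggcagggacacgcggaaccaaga
FOSL2: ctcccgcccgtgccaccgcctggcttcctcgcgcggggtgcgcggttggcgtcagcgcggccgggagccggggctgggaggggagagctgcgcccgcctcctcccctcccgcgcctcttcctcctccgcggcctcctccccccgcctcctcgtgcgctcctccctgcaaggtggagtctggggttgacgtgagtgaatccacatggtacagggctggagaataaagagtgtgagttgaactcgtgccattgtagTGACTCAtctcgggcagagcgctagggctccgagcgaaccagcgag
An AP-1 site occurred in 7.71% and a TATA box in 11.5% of the 35116 promoters of the same length. The FOS promoter held a TATA box 33 bases before its start and no match to the AP-1 or CRE-like site. These matches are letters in a window, and binding was not measured in these libraries.

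JUNB encodes a weaker activator than JUN that can restrain it, and it was the most abundant JUN gene. It has a single exon on hg38 chromosome 19, 12791486 to 12793315, plus strand, of which 259 of 1830 exon bases are shared with HOOK2 on the opposite strand. Normalised read counts were 10392, 9178 and 8197 with the empty vector and 7883, 8051 and 6592 with overexpression, with every overexpression library below every empty vector library. The log2 fold change was -0.30 (SE 0.13, 95% interval -0.56 to -0.04, adjusted p = 0.225). With the replicate block the value was again -0.30, now with an SE of 0.07 and an adjusted p of 0.00103, and without empty vector replicate 3 it was -0.38 (adjusted p = 0.00431). Together with replicates 1 and 2 alone, these were the 3 of 14 alternatives that called JUNB, and its adjusted p reached 0.893 among the others. The counts of either strand, which set aside reads in the shared bases and kept 73.0% of the summed counts, gave -0.31 (adjusted p = 0.23). The summed counts may hold HOOK2 reads from the shared bases, and their part in the result was not tested.

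JUND encodes the JUN protein that is present at steady levels in resting cells. It has a single exon on hg38 chromosome 19, 18279694 to 18281622, minus strand. Normalised read counts were 4530, 4119 and 3055 with the empty vector and 3460, 3936 and 2654 with overexpression, so the groups overlapped. JUND had a log2 fold change of -0.22 (SE 0.18, 95% interval -0.58 to 0.14, adjusted p = 0.693). Without empty vector replicate 3 it was -0.37 (adjusted p = 0.0401), and replicates 1 and 2 alone gave -0.23 (adjusted p = 0.049). Those were the only 2 of 14 alternatives that called JUND.

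JUN, the strongest activator of its family and a gene whose promoter is bound by its own product, lies on hg38 chromosome 1, 58776845 to 58784048, minus strand, and its longest annotated transcript has a single exon. Its normalised read counts were 1886, 1753 and 939 with the empty vector and 1159, 1489 and 1213 with overexpression. Empty vector replicate 3 was the lowest of all 6 libraries, and the other two of its group were the highest. The log2 fold change was -0.25 (SE 0.23, 95% interval -0.70 to 0.21, adjusted p = 0.743). Without empty vector replicate 3 it was -0.50 (adjusted p = 0.000948), and in replicates 1 and 2 alone -0.46 (adjusted p = 0.00133), so a single library decided this call. Those were the only 2 of 14 alternatives that called JUN.

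The JUN promoters are shown because they held the other matches to the searched elements. JUN (chr1:58783998-58784297, minus strand) held a CRE-like site beginning 67 bases before its start, JUNB (chr19:12791236-12791535, plus strand) held a TATA box 31 bases before, and JUND (chr19:18281573-18281872, minus strand) held CRE-like sites 200 and 54 bases before, the farther of which is a full cyclic AMP element. Capitals mark those matches.
JUN: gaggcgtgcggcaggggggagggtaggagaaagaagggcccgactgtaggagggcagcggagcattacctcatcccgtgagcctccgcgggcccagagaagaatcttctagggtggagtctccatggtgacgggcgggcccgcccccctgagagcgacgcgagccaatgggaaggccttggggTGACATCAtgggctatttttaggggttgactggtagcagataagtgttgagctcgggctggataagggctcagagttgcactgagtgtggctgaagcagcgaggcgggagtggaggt
JUNB: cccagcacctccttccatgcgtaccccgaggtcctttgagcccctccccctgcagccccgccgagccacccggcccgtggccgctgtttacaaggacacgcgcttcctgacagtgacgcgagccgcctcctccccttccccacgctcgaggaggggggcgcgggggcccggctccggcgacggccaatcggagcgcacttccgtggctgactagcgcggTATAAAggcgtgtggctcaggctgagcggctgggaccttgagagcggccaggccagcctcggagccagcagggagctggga
JUND: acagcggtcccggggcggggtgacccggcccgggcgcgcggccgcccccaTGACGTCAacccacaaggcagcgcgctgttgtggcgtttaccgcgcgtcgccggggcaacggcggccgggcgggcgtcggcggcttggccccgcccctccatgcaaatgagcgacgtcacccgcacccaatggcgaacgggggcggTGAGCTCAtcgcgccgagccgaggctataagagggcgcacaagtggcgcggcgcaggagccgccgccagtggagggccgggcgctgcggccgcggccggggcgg
A CRE-like site occurred in 11.5%, the full cyclic AMP element in 1.85% and a CArG box in 1.29% of all promoters. No member's window held a CArG box, and BATF and JDP2 held none of these letters.

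BATF, BATF3 and JDP2 act mainly as partners that lack an activation domain. JDP2, which represses AP-1 targets as a dimer with JUN, lies on hg38 chromosome 14, 75427716 to 75474111, plus strand, 145485 bases from FOS. Its normalised read counts were 587, 582 and 548 with the empty vector and 508, 537 and 441 with overexpression. The groups were separated, with a log2 fold change of -0.21 (SE 0.13, 95% interval -0.47 to 0.05, adjusted p = 0.541), and of -0.24 (adjusted p = 0.262) without empty vector replicate 3. BATF3, known for its role in dendritic cells, lies on chromosome 1, 212686417 to 212699840, minus strand. Its counts of 179, 181 and 198 with the empty vector overlapped those of 165, 157 and 182 with overexpression, and the log2 fold change was -0.14 (SE 0.18, 95% interval -0.49 to 0.20, adjusted p = 0.823). BATF, a lymphocyte factor on chromosome 14, 75522455 to 75546993, plus strand, had 1, 2 and 6 reads with the empty vector and 6, 4 and 7 with overexpression. At that depth a change was not detectable (log2 fold change 0.92, SE 1.03, adjusted p = 0.8).

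**Figure D2:**
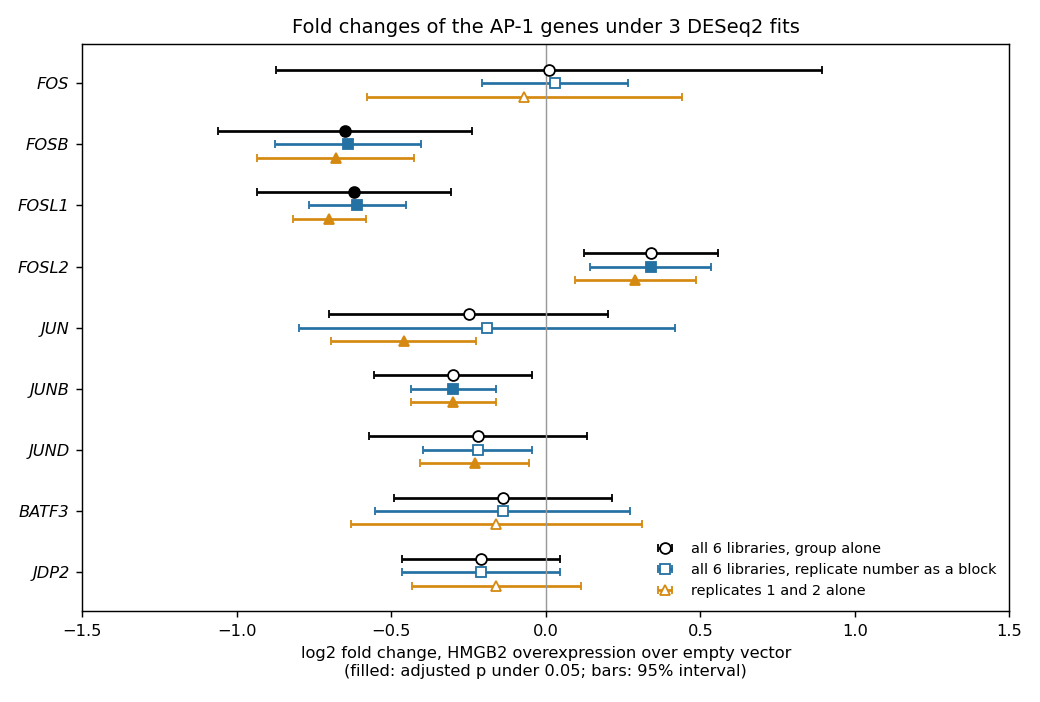
Log2 fold changes (x axis) of 9 AP-1 genes with 95% intervals under 3 DESeq2 fits, with BATF left out for its low counts and filled markers for an adjusted p under 0.05. FOSB and FOSL1 are filled in all 3 fits, and FOSL2 and JUNB in the fits with the replicate block and with replicates 1 and 2 alone, while JUN and JUND are filled in the last of these only.

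In both libraries numbered 3, all of the 9 members compared other than BATF3 lay below their group mean. With overexpression the order was less uniform, because JUN and FOSL2 were lowest in replicate 1 and FOSB was highest there. Deviations from the group mean on the log2 scale had a median over 9 members of -0.33 in empty vector replicate 3 and -0.16 in overexpression replicate 3, while the median of all genes was near 0 in each library. FOS reached -0.75 and -0.49 in those libraries, JUN -0.64 and -0.08, and FOSB -0.43 and -0.33, whereas BATF3 reached 0.09 and 0.12. Genes rich in GC moved alongside. The 1330 genes richest in GC had medians of -0.15 and -0.12 in the same libraries, and transcripts of JUND (69.9% GC) and JUNB (64.9%) ranked in the 99.7th and 96.7th percentile of GC content, FOSL1 (58.7%) in the 83.4th, and BATF3 (45.6%) in the 42.5th. After a correction for GC content and length, chosen after the data were seen, 2 members were called lower and FOSL2 was called higher (log2 fold change 0.38, adjusted p = 0.00171). The part of GC content in the shared deviation was not tested.

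**Figure D3:**
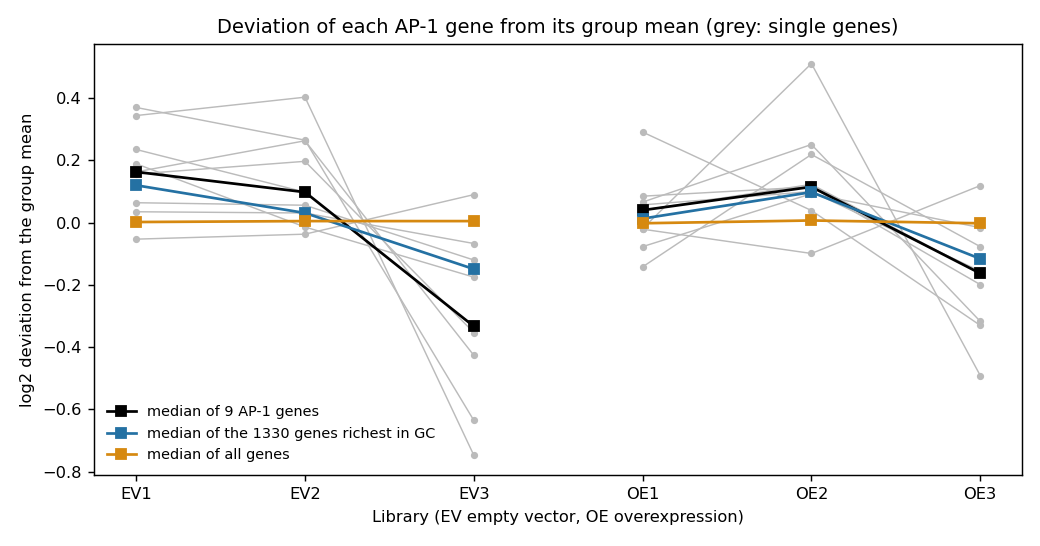
Deviation of the log2 normalised read count from its group mean (y axis) in each library, for 9 single AP-1 genes (grey), their median (black), the median of the 1330 genes richest in GC (blue) and the median of all genes (orange). The black line falls to -0.33 in empty vector replicate 3 and to -0.16 in overexpression replicate 3, and the blue line to -0.15 and -0.12.

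FOSL1 made up most FOS family transcripts in every library, and its share was smaller with overexpression. FOSL1 held 91.9%, 91.8% and 93.2% of FOS family TPM with the empty vector and 89.2%, 87.0% and 90.1% with overexpression. FOSL2 held 1.42%, 1.37% and 1.81% and then 2.58%, 2.74% and 3.14%. Neither share overlapped between the groups. FOSL1 TPM divided by FOSL2 TPM was 64.8, 67.1 and 51.7 with the empty vector and 34.6, 31.7 and 28.7 with overexpression. This ratio was chosen after the values were seen and is given without a test. JUNB held 65.7% to 70.7% of JUN family TPM with the empty vector and 64.3% to 67.8% with overexpression, which overlapped.

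**Figure D4:**
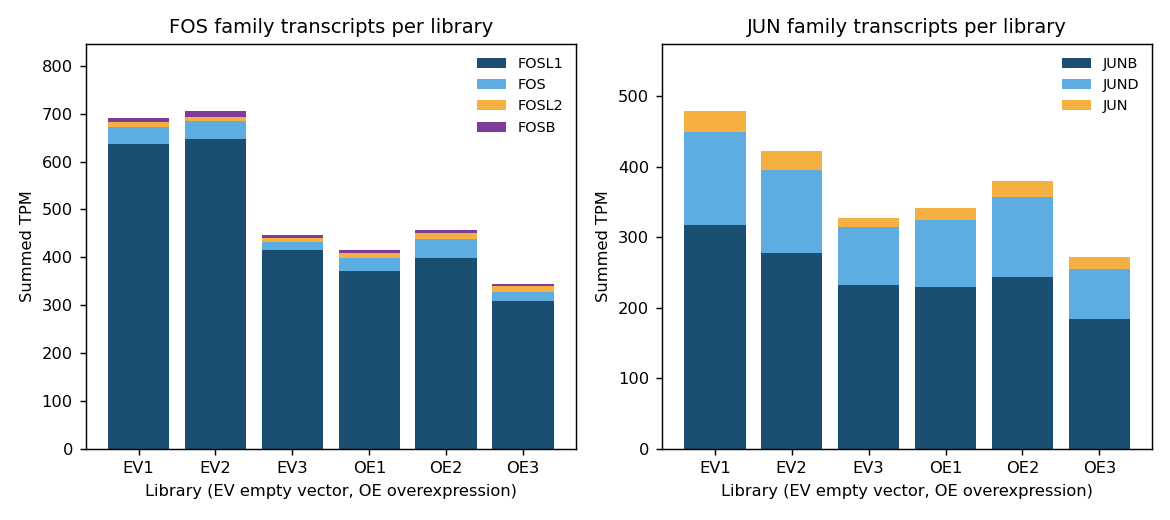
Summed TPM (y axis, from 0) of the FOS family (left) and the JUN family (right) in each library, stacked by gene. The FOS family total was 446 to 705 TPM with the empty vector and 344 to 458 with overexpression, and the JUN family total was 328 to 478 and 273 to 379, so both overlapped between groups, with empty vector replicate 3 the lowest of its group in each.

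The genes that pair with AP-1 proteins, control them or respond with them were taken from 5 lists of named genes. These lists too were chosen with earlier results of these data known, which limits what their counts beside all genes can show. Of the 96 listed genes that were tested, 13 fell and 1 rose, where 2.64% of all genes were called lower and 2.29% higher. The same shares stand beside the count of each list below. The replicate block called 21 lower and 1 higher, beside 6.23% and 5.90% of all genes, and those 21 included all 13. Without empty vector replicate 3, 30 were called lower and 2 higher, in a fit that called 9.10% of all genes lower and 8.03% higher. These lists were tested on the counts of either strand, which set aside reads shared with a neighbouring gene and kept 27.5% of the summed counts of IER2 and 80.1% of those of NR4A1.

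Among 13 partner basic leucine zipper factors of the ATF, CREB and MAF groups, 2 fell and 0 rose, with a median log2 fold change of -0.005. ATF3, a stress-induced factor that pairs with JUN, had normalised read counts of 1282, 1331 and 1633 with the empty vector and 871, 1003 and 984 with overexpression, all below. Its log2 fold change was -0.57 (SE 0.14, adjusted p = 0.00176), and without overexpression replicate 1 the adjusted p was 0.0949. MAFF, a small MAF protein without an activation domain, was also separated, from 1800 to 2187 down to 1497 to 1518, with a log2 fold change of -0.40 (SE 0.11, adjusted p = 0.0135). Its call was lost without any 1 library other than empty vector replicate 3, with adjusted p from 0.136 to 0.333.

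Of 20 kinases and factors that act upstream of the FOS and JUN promoters, 1 fell and 0 rose, with a median of -0.04. RPS6KA2, which encodes the ERK-activated kinase RSK3, had 2900, 2960 and 1993 normalised reads with the empty vector and 1453, 1364 and 879 with overexpression. Its log2 fold change was -1.09 (SE 0.21, adjusted p = 2.4e-05). The kinase genes BRAF, MAP2K1, MAP2K2 and MAPK3 had log2 fold changes between -0.11 and 0.10, and SRF, ELK1, ELK3 and ELK4, which bind the FOS promoter, between -0.16 and 0.16. None of these 8 passed the test. Among 10 genes for AP-1 protein turnover and cofactors, such as the ubiquitin ligase components FBXW7 and COP1 and the acetyltransferases EP300 and CREBBP, DESeq2 called 0, and their log2 fold changes lay between -0.18 and 0.14.

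Of 27 other immediate-early genes, 4 fell and 0 rose, 22 had a negative log2 fold change and the median was -0.28. The groups were separated downward for 8 of the 27 and upward for 2, beside 10.7% and 11.1% of all genes. DUSP5, a nuclear ERK phosphatase, fell from 3100 to 3759 normalised reads to 2105 to 2254 (log2 fold change -0.67, SE 0.11, adjusted p = 5.49e-07). KLF4, a zinc finger factor, fell from 2298 to 2844 down to 1548 to 1762 (-0.62, SE 0.12, adjusted p = 5.33e-05). MCL1, an inhibitor of apoptosis, fell from 58629 to 60206 down to 40786 to 44080 (-0.48, SE 0.08, adjusted p = 2.15e-06). KLF2 fell from 497 to 547 down to 339 to 410 (-0.48, SE 0.14, adjusted p = 0.0175), a call lost without any 1 library other than empty vector replicate 3 (adjusted p from 0.0547 to 0.324). EGR1, the best known of the list beside FOS, had 8659, 9931 and 4962 normalised reads with the empty vector and 5947, 6116 and 3600 with overexpression, so the groups overlapped (-0.59, SE 0.25, adjusted p = 0.2). In the summed counts 6 of the list were called lower, with IER2 (adjusted p = 0.0418) and NR4A1 (adjusted p = 0.0411) added. EGR1 and NR4A1 were among the genes called lower in the fit with the replicate block.

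Of 27 genes known as AP-1 targets, 26 were tested, 6 fell and 1 rose, with a median of -0.17 and 17 negative. LIF, a cytokine of the interleukin-6 family, had 4154, 3735 and 3239 normalised reads with the empty vector and 1977, 2029 and 1612 with overexpression. Its log2 fold change was -0.99 (SE 0.14, adjusted p = 1.1e-09). IL11, a related cytokine, fell from 1866 to 2321 down to 1191 to 1403 (-0.69, SE 0.13, adjusted p = 1.53e-05). AXL, a receptor tyrosine kinase high in dedifferentiated melanoma, fell from 24517 to 32516 down to 16596 to 19646 (-0.69, SE 0.14, adjusted p = 8.6e-05). The other 3 that fell are named after their values were seen. They were the chemokine gene CXCL8 (-0.68, adjusted p = 1.2e-05), the angiogenic factor VEGFA (-0.54, adjusted p = 1.49e-05) and the cyclin gene CCND1 (-0.65, adjusted p = 0.0403). CCND1 overlapped between groups, and its call was lost without any 1 library other than empty vector replicate 3 (adjusted p from 0.0519 to 0.332).

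HMGA2, which encodes a chromatin protein of invasive tumours, rose from 6145 to 7277 up to 8229 to 8443 (0.36, SE 0.11, adjusted p = 0.0238). That call was lost without empty vector replicate 1 and without each overexpression replicate, with adjusted p from 0.237 to 0.378. The matrix metalloproteinase genes MMP1 and MMP3, named after their values were seen, were separated upward. They stood at 77.3 to 113 against 116 to 159 and at 17.2 to 24.2 against 30.5 to 43.9 normalised reads, and neither passed the test (adjusted p = 0.245 and 0.401). MMP9, MMP10 and MMP13 overlapped between groups, with log2 fold changes of -0.34, 0.68 and 0.47. Of the 26 tested targets, 4 were separated upward and 6 downward, beside 11.1% and 10.7% of all genes. MMP1 kept 52.6% of its summed counts in the counts of either strand, and in the summed counts its groups overlapped.

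**Figure D5:**
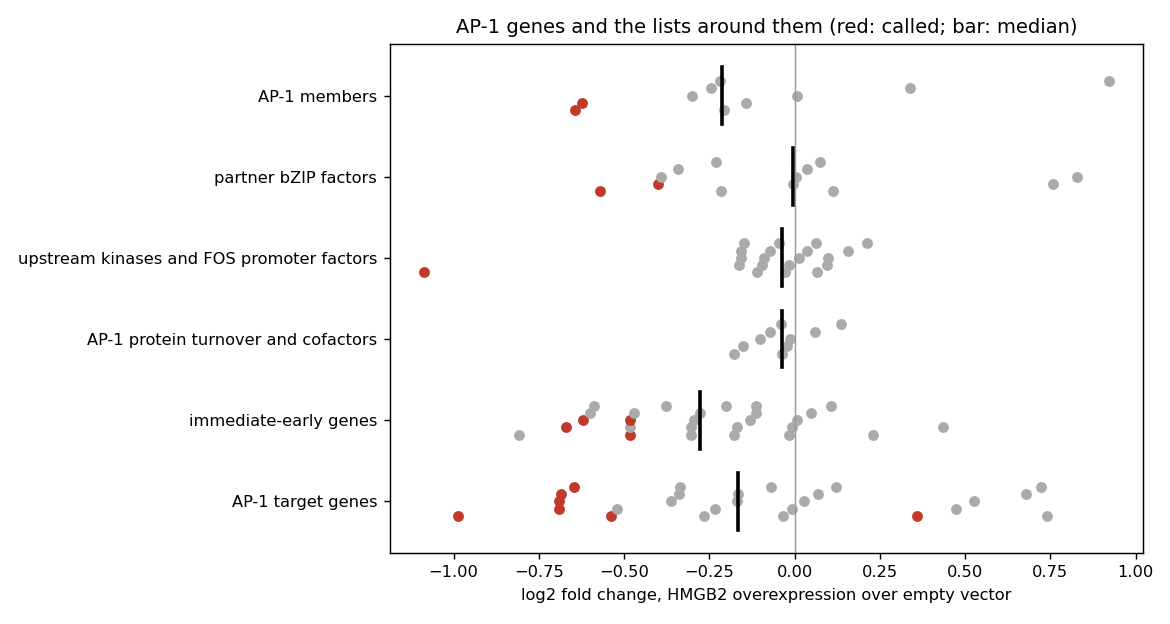
Log2 fold changes (x axis) of the 10 AP-1 genes and of the tested genes of 5 lists around them, with called genes in red and the list median as a black bar. The medians are -0.21 for the AP-1 genes, -0.28 for the immediate-early genes and -0.17 for the target genes, and lie between -0.04 and 0 for the other 3 lists.

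The genes whose pattern over the 6 libraries was most like that of FOSL1 were ABL2, ZNF787, HSPA9, RCN1 and FLNA, with Pearson correlations of log2 normalised counts from 0.996 to 0.998. For FOSB they were ZFAND3, NUTM2B-AS1, ATP9A, QKI and KIAA0040, with correlations from 0.994 to 0.998. These 6 points share the group and the library, and 361 of 13332 genes exceeded 0.95 for FOSL1 and 282 of 15437 for FOSB, so the names describe the top of a long list. Of the 5 genes most like FOSL1, ABL2 (log2 fold change -0.43, adjusted p = 0.0401), ZNF787 (-0.42, 0.0494), HSPA9 (-0.49, 0.00714) and FLNA (-0.71, adjusted p = 0.000896) also fell. Those falls are not separate findings, because the genes were chosen for following FOSL1 over the same libraries. None of the 5 most like FOSB passed the test.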

How the data were processed

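RNA sequencing of 6 A375 libraries, 3 per group by the genotype in the labels, was analysed. According to the methods and labels, reads passed through FastQC and Trimmomatic before alignment to GRCh38 (hg38), and STAR and bcl2fastq 2.20 are also named. The deposited values are whole-number read counts by gene, not normalized, in columns for either strand and for each strand. The 4 summary lines were left out; ambiguous reads made up 10.7% to 11.4% and multimapped reads 2.58% to 10.6%. TPM was computed from the summed strand columns. Symbols and exon lengths came from GENCODE 44, and 57532 of 58302 IDs matched.

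Groups were compared in DESeq2 1.42.0 under R 4.3.3 (Wald test and default parameters, as the study states, with group as the only term), fitted on all genes with Benjamini-Hochberg adjustment and called at an adjusted p under 0.05. The pipeline was tested on simulated data, in which large changes were recovered and calls of unchanged genes ran above the nominal rate in DESeq2. The members and lists were chosen with earlier results of these data known. Named were the members and HMGB2; in each list every called gene where 5 or fewer were called, and otherwise the 3 largest rises and falls among called genes with a mean of 50 or more; and the 5 genes most like each called member.

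Replicate numbers come from the titles, which do not say what they mark. Deviations of same-numbered libraries from their group means correlated at 0.192, 0.383 and 0.650 over 13333 genes, and the replicate block was treated as a pairing. However, empty vector replicate 1 correlated more with overexpression replicate 2 (0.502), and overexpression replicate 1 more with empty vector replicate 2 (0.286). Only the libraries numbered 3 were each other's closest. The p values of the block therefore rest on a pairing that was not established. Alternatives were edgeR 4.0.16, TMM factors, a filter of 10 counts in 3 libraries, no independent filter, the other count column, the block, replicates 1 and 2 alone, each library left out, and, added after the data were seen, a GC and length correction. Some genes of the lists are not reported here.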

Additional observations from a re-analysis of the deposited data

How the results depend on the processing

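HMGB2 was called higher in 14 of 14 alternatives, with log2 fold changes from 0.98 to 1.09. The 2 members called lower became 0 in edgeR, 1 without the independent filter and 5 in replicates 1 and 2 alone, and 0 to 5 when 1 library was left out. The 0 members called higher became 1 with the 10-count filter, the replicate block, replicates 1 and 2 alone and the GC and length correction, and 0 to 1 with 1 library left out. Of the listed genes, the 13 called lower became 21 with the replicate block and 29 in replicates 1 and 2 alone, and 9 to 30 with 1 library left out; the 1 called higher became 0 in edgeR, 2 in replicates 1 and 2 alone, and 0 to 2 with 1 library left out. The sign of FOS turned to -0.07 in replicates 1 and 2 alone, -0.28 without empty vector replicate 3 and -0.29 without overexpression replicate 2, within a range of -0.29 to 0.22 when single libraries were left out. The cause of these shifts was not tested. Over the members and named genes, 291 single-gene values kept their direction and side of the threshold, 35 lost the call, 12 gained one and 3 turned. The replicate block changed no member's call other than those of FOSL2 and JUNB. With 3 technical replicates per group, counts as low as those of BATF limit what can be detected, and it received an adjusted p in 5 alternatives.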

Other observations

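The endothelial marker KDR, a receptor for VEGFA, had 102, 134 and 97.7 normalised reads with the empty vector and 57.2, 50.2 and 47.3 with overexpression. KDR fell by 1.11 on the log2 scale (SE 0.26), at an adjusted p of 0.00115 in DESeq2. It was named after its values were seen, and the other endothelial markers PECAM1 and CDH5 did not pass the test (adjusted p = 0.6 and 0.502). SOX10, a melanocyte lineage factor, was at 0 in every library in the counts of either strand, and at 28863 to 56464 reads in the sum of the strand columns, where its log2 fold change was -0.24 (adjusted p = 0.654). CD68, a macrophage marker, likewise held 191 to 264 reads in the summed columns and 0.299% of them in the counts of either strand. For both genes the summed columns can hold reads of a gene on the opposite strand, which was not tested.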
